A study of Mus musculus with 4 samples.

Results

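The genes described here are the interleukins, the proteins that bind them and their receptor chains, with a few other genes that carry an interleukin name. They were chosen by name, as every mouse gene symbol that starts with Il and a number, receptor names included, with 1 symbol set aside by the rule. Of 21153 genes that a probe of the array named, 80 belonged to this group, 41 of them receptors or binding proteins, 35 ligands and 4 other genes, Il16, Il34, Il4i1 and the noncoding RNA gene Il1bos. RNA of small intestine was compared between 2 arrays of Cyp3a-/- mice, which lack the Cyp3a cluster of cytochrome P450 genes, and 2 arrays of wild-type mice. The series' design text says that separate mice served for each of the 2 experiments. The strain, age and sex of the mice, whether RNA was pooled over mice before labelling, and which segment of the intestine was taken are not given in the sources used here. The p-values below measure only the spread between these 4 arrays, whose number limits the precision.

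Interleukins are secreted signals between immune, epithelial and stromal cells. Most act through paired receptor chains that either recruit JAK kinases and STAT factors or, in the IL-1 and IL-17 families, lead to NF-κB, and many chains are shared by several ligands. In the small intestine, epithelial cells make IL-18 and IL-15, lymphocytes of the lamina propria make IL-22 and IL-17, and stromal cells make IL-33. Several soluble proteins, such as those encoded by Il22ra2 and Il18bp, catch a ligand before it reaches its receptor.

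No interleukin gene passed the threshold between the genotypes. Limma called 0 of the 38 measured members higher and 0 lower at an adjusted p of 0.05, where it called 0% of all 14395 tested genes higher and 0.0417% lower. At an unadjusted p under 0.05 there was 1 member, Il22ra2, where 0.438% of all genes reached that level. A level here is the log2 signal of a probe after the 75th percentile of its array was subtracted. A difference is knockout minus wild type on this scale, and its standard error (SE) comes from limma, fitted to all tested genes together. Signals of different probes cannot be set against each other, so each gene is compared with itself across arrays. The tissue held whole cell mixtures, so fewer cells of a type and less RNA per cell cannot be told apart.

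By the brightest probe of each gene, Il4ra stood higher on both knockout arrays, and Il18 and Il22ra1 stood higher on knockout 1. Promoter sequences are shown for these 3 members as examples. They are RefSeq sequences of build GRCm38.p6 on the + strand, from 250 bases before the gene start to 50 after it, and capitals mark the motifs named next.
Il4ra, chr7:125552021-125552320: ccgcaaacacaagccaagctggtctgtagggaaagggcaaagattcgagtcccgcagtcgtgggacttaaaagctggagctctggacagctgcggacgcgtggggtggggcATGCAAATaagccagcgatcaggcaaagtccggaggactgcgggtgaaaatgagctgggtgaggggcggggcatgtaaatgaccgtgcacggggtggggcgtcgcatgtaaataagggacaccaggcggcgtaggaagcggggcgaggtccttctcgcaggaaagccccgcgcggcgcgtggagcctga
Il18, chr9:50554450-50554749: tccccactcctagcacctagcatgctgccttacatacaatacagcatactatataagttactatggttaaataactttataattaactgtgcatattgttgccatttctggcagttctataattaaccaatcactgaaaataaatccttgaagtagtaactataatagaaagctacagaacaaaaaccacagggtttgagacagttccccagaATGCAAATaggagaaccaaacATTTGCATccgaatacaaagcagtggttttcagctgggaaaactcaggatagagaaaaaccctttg
Il22ra1, chr4:135727909-135728208: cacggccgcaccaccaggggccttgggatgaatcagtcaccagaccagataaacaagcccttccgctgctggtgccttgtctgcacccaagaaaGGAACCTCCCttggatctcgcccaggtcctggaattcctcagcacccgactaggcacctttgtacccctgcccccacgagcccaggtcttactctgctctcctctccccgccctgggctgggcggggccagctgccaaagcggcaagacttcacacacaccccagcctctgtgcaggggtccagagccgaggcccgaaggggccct

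These promoters were searched on both strands for TTCNNNGAA, the site STAT factors bind, GGGA, any 2 bases and TTCC, a form of the NF-κB site, and ATGCAAAT, the octamer bound by POU factors. No motif overlapped another in the 3 sequences. The octamer was added after the promoters had been read, so its share among members counts promoters already seen and is no test. The octamer stood once in the Il4ra promoter and 2 times in that of Il18. It was in 7.32% of the 82 promoters of members, against 1.74% of all 32851 promoters. Those 6 member promoters were of Il1rl1, Il33, Il18, Il4ra and 2 starts of Il1rn. The NF-κB form stood once in the Il22ra1 promoter, in 3.66% of member promoters and in 1.47% of all. The STAT site was in 13.4% of member promoters and in 8.30% of all, and in none of the 3 shown. A match is a run of letters and not a measured site.

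Most ligand genes gave no usable signal. A probe entered the test when 2 or more of the 4 arrays showed it well above background. Of the 35 ligand genes 7 did, and of the 41 genes for receptors and binding proteins 28 did. Genes for the T cell cytokines Il2, Il4, Il5, Il9, Il13, Il17a, Il17f and Il21 reached that level on none of the arrays. The same held for Il6 and Il10, for Il7, and for Il1a and Il1rn, the gene of the IL-1 receptor antagonist. Altogether 39 of the 42 members that were not tested were well above background on 0 arrays. The other 3 were above it on 1 array each, Il21r on knockout 1 and the receptor genes Il13ra2 and Il20ra on wild type 2. The number of members well above background was 39 on knockout 1 and 33 on knockout 2, against 36 on wild type 1 and 40 on wild type 2. Knockout 2 was the dimmest array, with a 75th percentile of signal of 175, where knockout 1 had 322 and wild type 1 and 2 had 226 and 356. The part of brightness in detection was not tested.

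Of the 38 measured members, 33 were well above background on all 4 arrays. Differences were positive for 20 of them (52.6%, where 56.2% of all tested genes were positive) and negative for 18, with a median of 0.01 beside 0.04 over all genes. They ranged from -0.48 for Il1r2 to 1.67 for Il22ra2. The knockout arrays both exceeded the higher wild-type array for 2 members, Il22ra2 and Il4ra (5.26%, where 8.66% of all genes did), and below them for 2, Il4i1 and Il20rb (5.26%, where 6.09% did). These shares lay at or under those of all genes. A log2 difference of at least 1 was found for 1 member, Il22ra2, and for 1.67% of all genes.

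**Figure D1:**
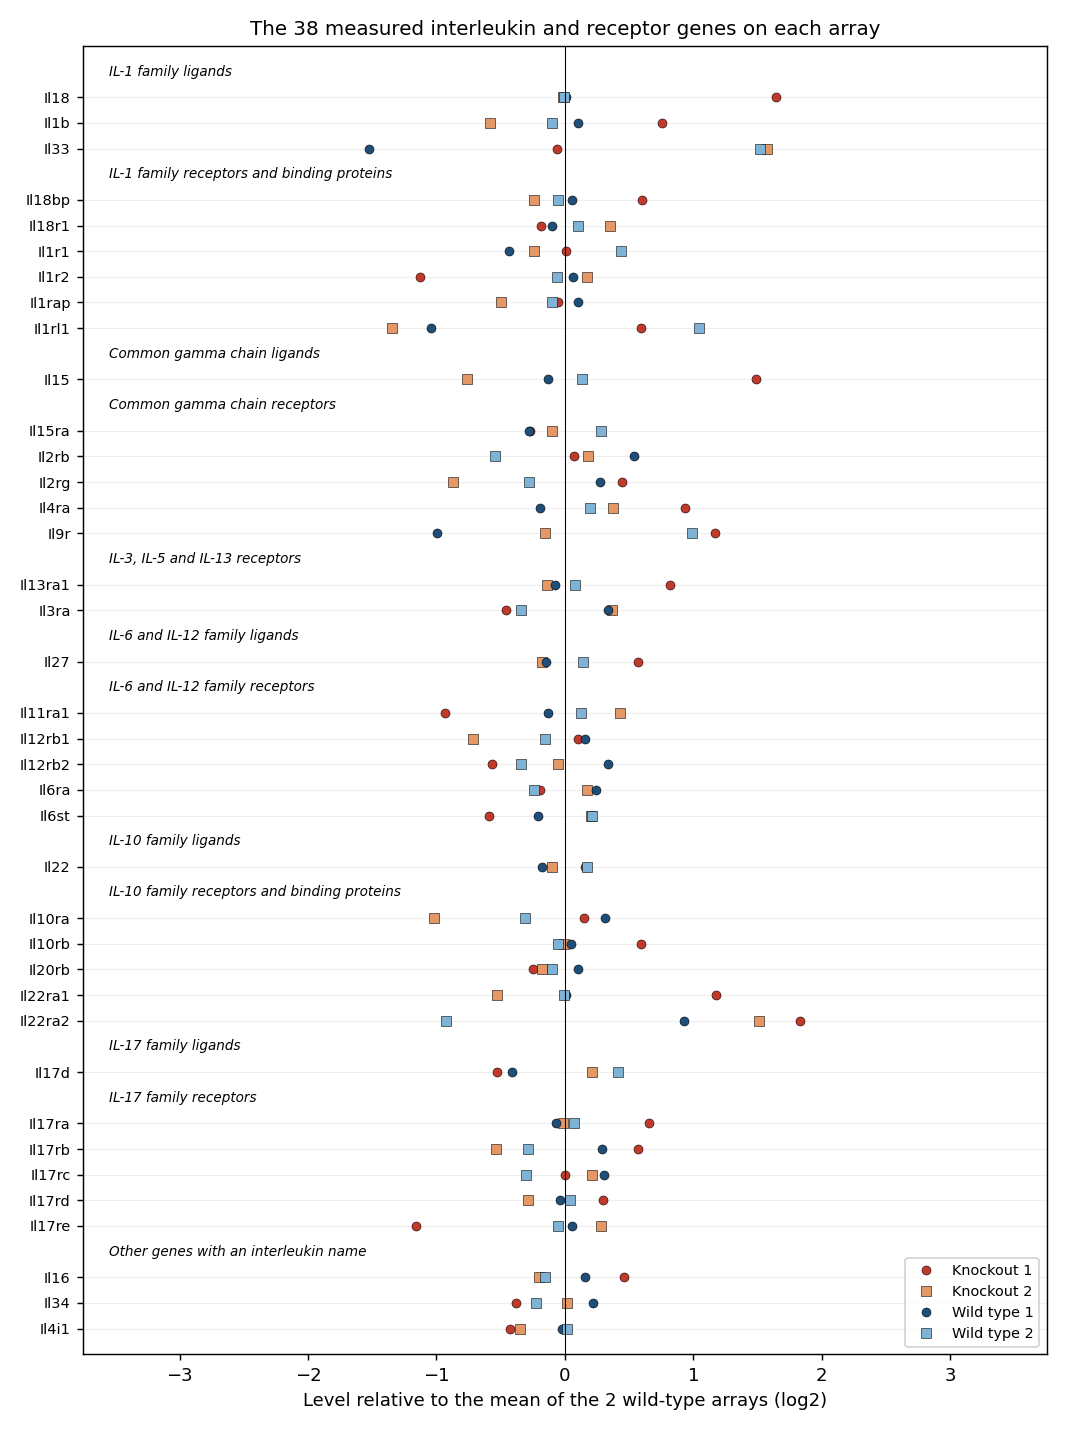
Level of each of the 38 measured genes on each array minus the mean of the 2 wild-type arrays (log2, horizontal axis), with genes grouped by family and role. Circles are replicate 1 and squares replicate 2 of each genotype, and the knockout points stand apart from both wild-type points on the same side only for Il22ra2, Il4ra, Il4i1 and Il20rb.

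Il22ra2 encodes a soluble receptor that binds IL-22 and keeps it from epithelial cells. Its level was -1.26 and -1.58 on knockout 1 and 2, against -2.16 and -4.02 on wild type 1 and 2. Both knockout arrays were high, and wild type 2 lay well under the other 3 arrays. The mean was -1.42 ± 0.23 in knockout and -3.09 ± 1.31 in wild type (SD, n = 2 each), a 3.19-fold difference. Limma gave a log2 difference of 1.67 (SE 0.63, 95% interval 0.15 to 3.20) with an unadjusted p of 0.0363 and an adjusted p of 1.00. Without wild type 2 the difference was 0.74 and without wild type 1 it was 2.60. It was 0.65 with normexp background correction followed by quantile scaling. Within the slide that held knockout 1 and wild type 2 it was 2.76. The gene is known to be expressed by dendritic cells of gut lymphoid tissue. The 11 tested markers of macrophages and dendritic cells, all well above background on every array, had a summed level of 4.59 and 3.94 on the knockout arrays and of 4.46 and 4.07 on the wild-type arrays. Their differences were negative for 9 and positive for 2, with a median of -0.19, and none passed. Knockout lay apart below wild type for 2 of them (18.2%) and above for 1 (9.09%), where 6.09% and 8.66% of all genes did. Itgax, the CD11c gene of dendritic cells, had levels of 0.28 and -0.43 in knockout, against 0.60 and -0.24 in wild type. The 6 tested markers of B and plasma cells had negative differences in 6 of 6, with a median of -0.33, and none passed. Of these 2 lay apart below wild type, Cd79a and Xbp1 (33.3%, where 6.09% of all genes did). Cd79a, a chain of the B cell receptor complex, had levels of -4.42 and -4.05 in knockout, against -3.36 and -3.80 in wild type. Its probe was not well above background on knockout 2. The part of lymphoid tissue in the Il22ra2 difference was not tested.

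The receptors of the IL-22 and IL-10 pathways did not separate the genotypes. Il22ra1, the epithelial chain of the IL-22 receptor, had levels of 0.38 and -1.32 on the knockout arrays, against -0.79 and -0.80 on the wild-type arrays. Knockout 1 lay above and knockout 2 below wild type, whose arrays differed little. The log2 difference was 0.33 (SE 0.56), or 1.18 without knockout 2 and -0.53 without knockout 1. A second, dimmer Il22ra1 probe did not show this pattern. Its levels were -3.91 and -3.47 in knockout, against -4.14 and -3.72 in wild type, so that knockout 2 was highest and the groups overlapped. That probe was not well above background on wild type 1. Il10rb, the chain that the IL-10 and IL-22 receptors share, had levels of 0.90 and 0.30, against 0.35 and 0.25 in wild type, with knockout 1 alone above the rest. Il10ra, the chain that binds IL-10 itself, had levels of -2.01 and -3.18, against -1.85 and -2.47, and was lowest on knockout 2. Il20rb, a chain of receptors for IL-19, IL-20 and IL-24, had levels of -3.36 and -3.28 in knockout, against -3.01 and -3.21 in wild type. Its groups did not overlap, but the difference was small (-0.21, SE 0.38, 95% interval -1.13 to 0.70), and it was 0.00 with normexp and quantile scaling and 0.73 with normexp alone. Il22 itself had levels near the detection limit, -4.69 and -4.95 in knockout and -5.02 and -4.67 in wild type. It was well above background on knockout 1 and wild type 2, the arrays of the shared slide, and on neither of the others. Those were also the brightest arrays. The lowest level that counted as well above background was -4.84 and -5.16 on them, against -4.02 on knockout 2 and -4.29 on wild type 1. The parts of slide and brightness were not tested. The related gene Iltifb is close in sequence, so its transcripts could add to the Il22 signal.

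**Figure D2:**
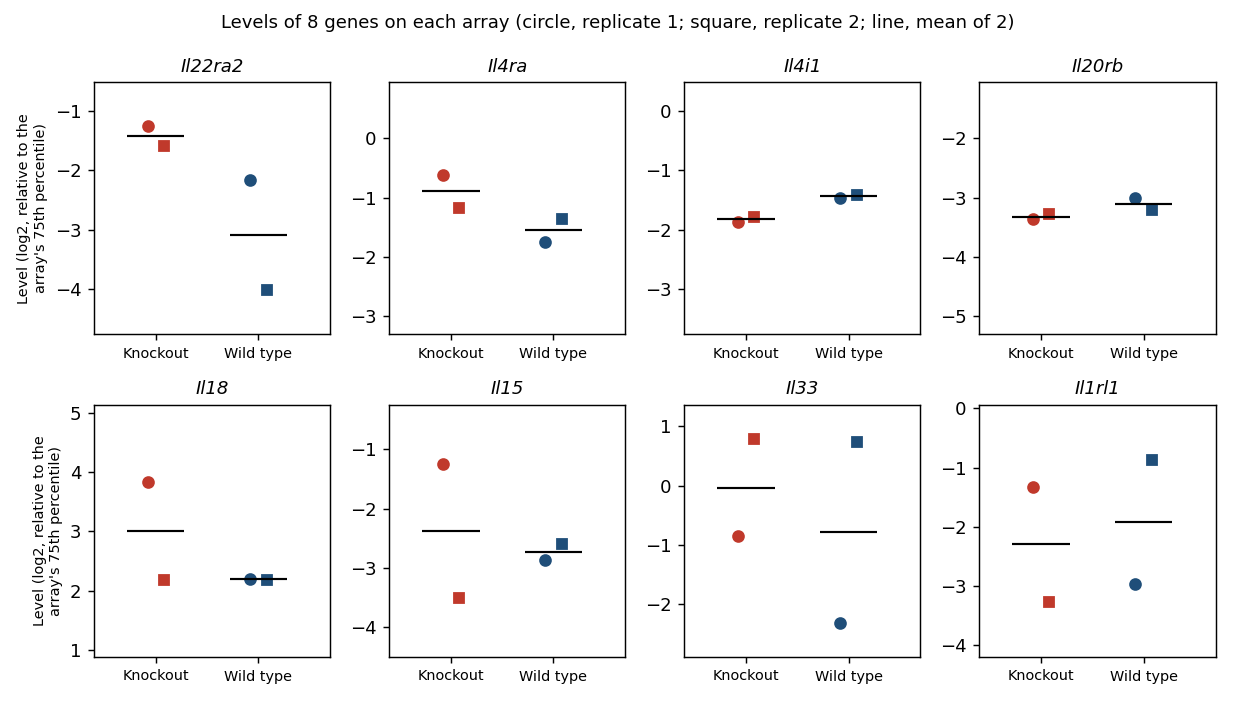
Levels of 8 genes on each array (log2, relative to the array's 75th percentile), knockout at the left and wild type at the right of each panel, with circles for replicate 1, squares for replicate 2 and a line at the mean of 2. All panels span the same number of log2 units. The upper 4 genes are those whose genotypes did not overlap. In the lower row, Il18 and Il15 are high on knockout 1 alone, and the Il33 and Il1rl1 arrays differ as much within a genotype as between genotypes.

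Il4ra encodes the receptor chain shared by IL-4 and IL-13, the cytokines of type 2 immunity. Levels were -0.62 and -1.17 on the knockout arrays, against -1.75 and -1.36 on the wild-type arrays. Both knockout arrays were above both wild-type arrays, by little for knockout 2. The mean was -0.90 ± 0.39 in knockout and -1.55 ± 0.27 in wild type (SD, n = 2 each), with a log2 difference of 0.66 (SE 0.35, 95% interval -0.19 to 1.50, limma's adjusted p = 1.00). A second Il4ra probe had levels of -3.02 and -2.37 in knockout, against -2.81 and -2.62 in wild type, so its groups overlapped and its difference was 0.03. Both probes were well above background on all 4 arrays, and they disagree. Il13ra1, which joins Il4ra in the receptor for both ligands on nonimmune cells, had levels of -0.56 and -1.52, against -1.46 and -1.31 in wild type. Its signal was high on knockout 1 alone (difference 0.34, SE 0.40). Stat6, the factor activated by this receptor, had levels of 0.95 and 0.32, against 0.40 and 0.10, and its groups overlapped. Il4i1, an L-amino acid oxidase gene named for its induction by IL-4 and not itself an interleukin, was lower on both knockout arrays, at -1.86 and -1.79, against -1.46 and -1.42 in wild type. Replicates lay close together (mean -1.83 ± 0.05 in knockout and -1.44 ± 0.03 in wild type, SD, n = 2 each), and the difference of -0.39 (SE 0.30, 95% interval -1.12 to 0.35) did not pass (limma's unadjusted p = 0.245, adjusted p = 1.00). Its sign turned with normexp background correction (0.25).

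Il18 and Il33, ligands of the IL-1 family, had the largest positive differences of the 38 members after Il22ra2, and neither passed. Il18 encodes an epithelial cytokine that caspase-1 matures. Its level was 3.84 on knockout 1 and 2.18 on knockout 2, against 2.20 and 2.19 on the wild-type arrays. Knockout 1 stood apart, and the other 3 arrays lay together. The log2 difference was 0.81 (SE 0.54, 95% interval -0.49 to 2.12, limma's adjusted p = 1.00). Without knockout 2 it was 1.64 and passed the threshold (limma's adjusted p = 0.0147), and without knockout 1 it was -0.01. The fit without knockout 2 takes its spread from the wild-type arrays alone and assumes that the lone knockout array varies like them. Il18 was the only member past the threshold in any of the alternatives tried. Its binding protein gene Il18bp had levels of -1.93 and -2.76, against -2.47 and -2.58 in wild type, again highest on knockout 1, while the receptor chain gene Il18r1 was highest on knockout 2 (-2.38 and -1.85, against -2.30 and -2.10). Casp1 had levels of 3.55 and 2.54 in knockout and 3.20 and 2.43 in wild type, and its groups overlapped. Il1b, the inflammatory cytokine gene, stayed near the detection limit at -3.34 and -4.68 in knockout, of which the second was not well above background, and -4.00 and -4.20 in wild type.

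Il33, an alarm signal of barrier and stromal cells, varied more between arrays of 1 genotype than between genotypes. Its level was -0.85 and 0.79 in knockout, against -2.31 and 0.74 in wild type, low in wild type 1 and alike in knockout 2 and wild type 2. The log2 difference of 0.75 (SE 1.02) was 2.28 without wild type 2 and -0.77 without wild type 1, and -1.59 within the shared slide. Il1rl1, which encodes the IL-33 receptor ST2 in membrane and soluble forms, had levels of -1.32 and -3.26 in knockout, against -2.96 and -0.87 in wild type. It was high on knockout 1 and wild type 2, the arrays of the shared slide. A second Il1rl1 probe, designed on another transcript, had levels of -2.53 and -3.01, against -3.93 and -2.27, with the same 2 arrays above the others and a difference of 0.33, opposite in sign to the -0.37 of the brighter probe. Il1r2, a decoy that holds IL-1 without signalling, had the most negative difference of all members (-0.48, SE 0.49). Its levels were -2.84 and -1.54 in knockout, against -1.65 and -1.77, low on knockout 1 alone. Il1r1, the signalling IL-1 receptor, had levels of -2.51 and -2.76 in knockout, against -2.96 and -2.09 in wild type, and its partner chain gene Il1rap had -2.52 and -2.97, against -2.37 and -2.57. The knockout levels of Il1r1 lay between the wild-type ones, and those of Il1rap overlapped with them.

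Il15 sustains the lymphocytes that lie between epithelial cells. Its level was -1.25 on knockout 1 and -3.50 on knockout 2, against -2.87 and -2.60 in wild type. The 2 knockout arrays lay on opposite sides of both wild-type arrays, and the difference of 0.36 (SE 0.73) was under its error. Il15ra, which presents IL-15 to neighbouring cells, had levels of 3.35 and 3.52, against 3.34 and 3.91, with overlap, and a second Il15ra probe had a difference of 0.08. Il2rb, the chain that IL-2 and IL-15 share, had levels of -1.01 and -0.90 in knockout, which lay between the wild-type levels of -0.54 and -1.62. A second Il2rb probe, well above background on all 4 arrays, had levels of -0.75 and -2.34, against -1.60 and -1.62 in wild type. On that probe knockout 1 lay above and knockout 2 below both wild-type arrays. The common gamma chain gene Il2rg had levels of -3.07 and -4.38, against -3.23 and -3.78, and was not well above background on knockout 2. Il9r had levels of -2.98 and -4.30, against -5.14 and -3.16, and was well above background only on knockout 1 and wild type 2, the brightest arrays. The 9 tested T cell markers had a summed level of 3.90 and 3.30 on the knockout arrays and of 3.83 and 3.45 on the wild-type arrays. Among them Cd8a, carried by many intraepithelial lymphocytes, had levels of -1.75 and -3.77, against -2.39 and -2.95. Like Il15, Cd8a was highest on knockout 1 and lowest on knockout 2, but most of the 9 markers were not. Knockout 1 was above both wild-type arrays for 4 of the 9 and below both for 1, and knockout 2 was below both for 3. Cd3e was lowest on knockout 1, at 1.32 and 1.78, against 2.12 and 1.56. The part of lymphocyte number was not tested.

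All 5 measured receptor genes of the IL-6 and IL-12 families had negative differences, between -0.31 and -0.01 and each smaller than its SE, but Il12rb1 and Il12rb2 turned positive with normexp (0.67 and 0.76) and Il6ra with median scaling (0.05). Il6st, the gp130 chain that IL-6, IL-11 and IL-27 share, had levels of -0.44 and 0.35 in knockout, against -0.06 and 0.36 in wild type. Il11ra1, the IL-11 receptor gene, had levels of 2.68 and 4.04, against 3.48 and 3.74, low on knockout 1 and high on knockout 2 (difference -0.25, SE 0.48). Its near-identical neighbour Il11ra2 was not analysed here, and the Il11ra1 probe may read both. For Il6ra, the IL-6 receptor gene, levels were -0.08 and 0.29, against 0.36 and -0.13, with overlap. The IL-12 receptor genes Il12rb1 (-2.24 and -3.07, against -2.19 and -2.50) and Il12rb2 (-4.01 and -3.50, against -3.11 and -3.78) overlapped as well. Il27, the gene of the IL-27 p28 subunit, had levels of -0.78 and -1.52, against -1.49 and -1.20, and was highest on knockout 1. Il3ra, the IL-3 receptor chain, had levels of -0.27 and 0.55 in knockout, against 0.53 and -0.15 in wild type.

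The IL-17 family was measured through 1 ligand and all 5 receptor genes. Il17rc, which forms the receptor for IL-17A and IL-17F together with Il17ra, had levels of 4.33 and 4.54 in knockout, against 4.64 and 4.03 in wild type. The knockout levels lay between the wild-type ones, and the difference of 0.10 (SE 0.33) turned to -0.01 with quantile normalization. Il17ra, the chain that most of the family uses, had levels of -2.51 and -3.18, against -3.23 and -3.09, highest on knockout 1. Il17re, the epithelial receptor chain for IL-17C, moved the other way on that array. Its level was -1.85 and -0.41 in knockout, against -0.63 and -0.74 in wild type, so that knockout 1 was lowest and knockout 2 highest (difference -0.44, SE 0.50). Il17rb and Il17rd had differences of 0.02 and 0.01. Il17d, the 1 ligand gene of the family that was measured, had levels of -0.59 and 0.15, against -0.47 and 0.35, with overlap. Il34, a ligand of the macrophage receptor CSF1R, had levels of -0.47 and -0.07, against 0.14 and -0.31, and Il16, a lymphocyte attractant gene, had -2.0 and -2.67, against -2.31 and -2.62. Both overlapped.

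The 2 knockout arrays disagreed with each other more than the wild-type arrays did. Relative to the wild-type mean, they lay on opposite sides of it for 30 of the 38 members, 78.9%, where 61.8% of all genes did. The median gap between the knockout arrays was 0.75 for members and 0.45 for all genes, and between the wild-type arrays it was 0.33 for members and 0.30 for all genes. Knockout 1 was above both wild-type arrays for 16 members and below both for 11, and knockout 2 was above both for 8 and below both for 17. Across the 38 members the arrays correlated at 0.911 between the knockouts and at 0.922 between the wild types. Knockout 1 correlated with wild type 1 and 2 at 0.9235 and 0.9214, and knockout 2 at 0.9533 and 0.9551. These correlations are a description over genes that share each array. With 1 array left out, the sign of the difference turned for 33 of the 38 members. Those that did not turn were Il22ra2, Il4ra, Il4i1, Il20rb and Il1rap, and for the first 4 the absence of overlap fixes this.

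**Figure D3:**
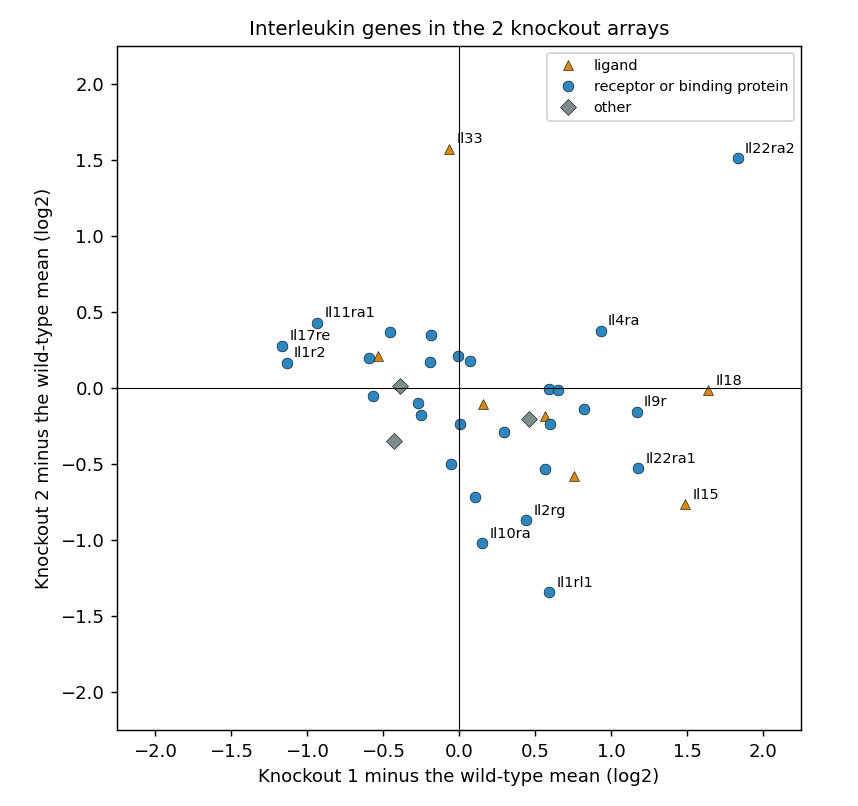
Each of the 38 members by its level on knockout 1 (horizontal) and knockout 2 (vertical), both minus the mean of the wild-type arrays (log2), with triangles for ligands, circles for receptors and binding proteins and diamonds for other genes. Both axes share the same wild-type mean. Il22ra2 and Il4ra lie above 0 on both, while 30 members have opposite signs.

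**Figure D4:**
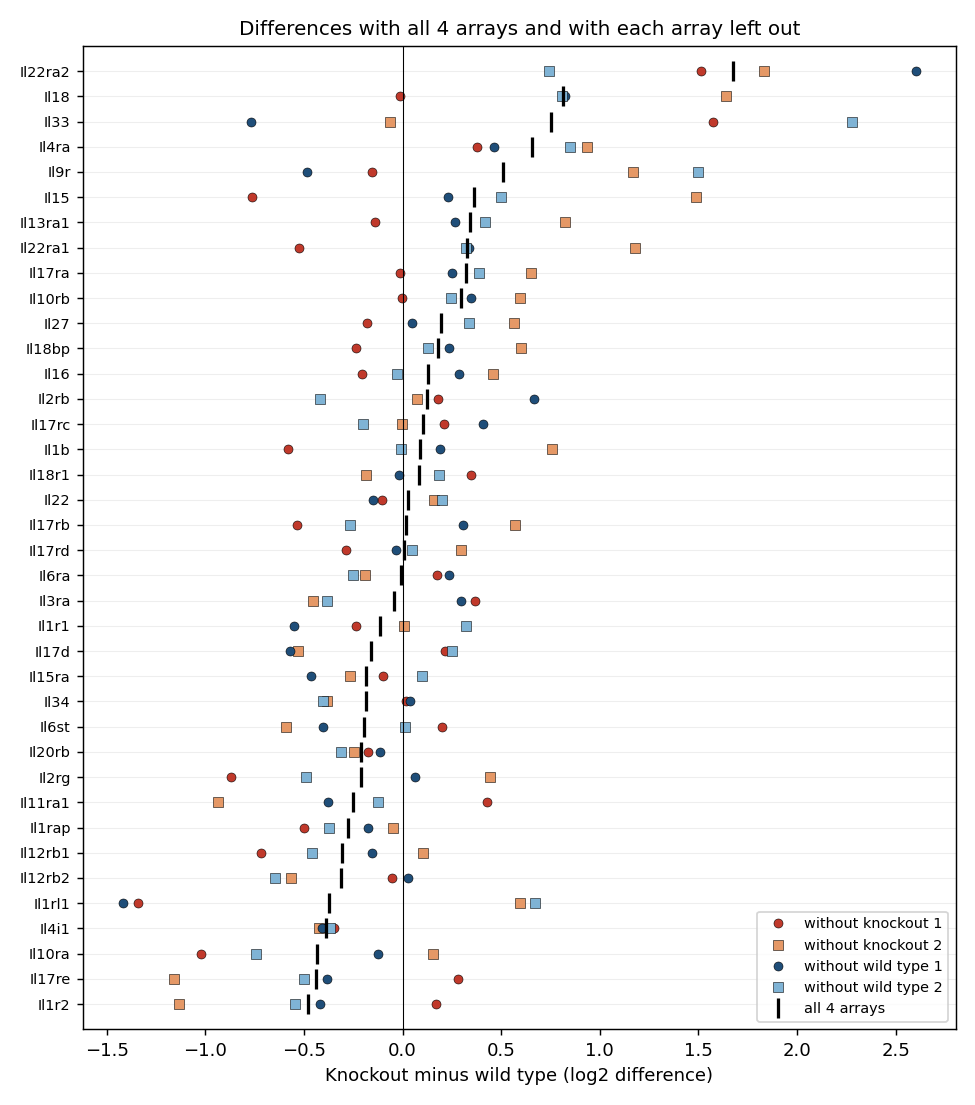
Log2 difference, knockout minus wild type, of each member with all 4 arrays (bar) and with each array left out (points), in order of the difference. For 33 members at least 1 point falls on the other side of 0 from the bar, and Il33 spans from -0.77 to 2.28.

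Markers of absorptive enterocytes were high on knockout 1, and those of smooth muscle and fibroblasts were low there. The tissue carried its defining genes: the 12 markers of absorptive enterocytes, which line the villus, were well above background on all 4 arrays. Their median relative to the wild-type mean was 0.96 on knockout 1 and -0.26 on knockout 2, against 0.24 and -0.24 on the wild-type arrays, and 12 of 12 were above the wild-type mean on knockout 1. Their summed level was 10.6 and 9.83 in knockout, against 10.3 and 9.65. Sis, the sucrase-isomaltase gene, had levels of 4.39 and 2.85, against 3.23 and 2.52. Of the members named above as epithelial, Il18, Il15 and, by its brighter probe only, Il22ra1 were highest on the same array. Il17re was lowest on it. Smooth muscle markers went the other way, with medians of -0.94 and 0.69 on the knockout arrays, against -0.10 and 0.10, and fibroblast markers had -0.56 and 0.30, against -0.26 and 0.26. All 6 smooth muscle and all 7 fibroblast markers were well above background on every array, with summed levels of 6.61 and 8.22, against 7.42 and 7.62, for smooth muscle and of 4.84 and 5.85, against 5.17 and 5.66, for fibroblasts. Il11ra1 and Il6st were lowest on knockout 1 as well, as were Il12rb2, Il17d, Il18r1, Il1r2, Il20rb, Il34, Il3ra and Il4i1. Il33, a stromal product, was lowest on wild type 1. Knockout 1 was above both wild-type arrays for 16 members, among them Il9r, Il16, Il18bp and Il27, which were not named above as epithelial. The part of tissue composition in these members was not tested.

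**Figure D5:**
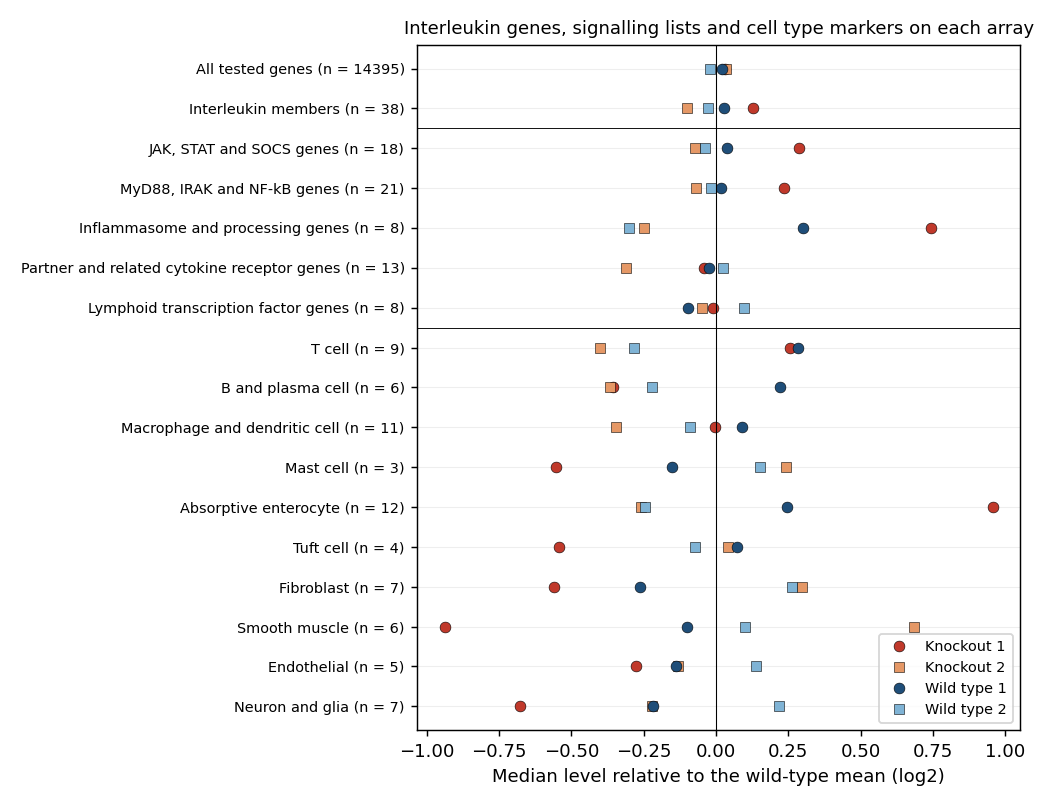
Median level of all tested genes, of the 38 members, of 5 signalling lists and of 10 marker lists on each array, relative to the wild-type mean (log2), with the number of tested genes in brackets. Enterocyte markers are highest on knockout 1 (0.96) and smooth muscle markers lowest there (-0.94), and the members' medians stay between -0.10 and 0.13.

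Genes that act after or beside the receptors were taken from 5 lists drawn up by function. Of 68 tested genes limma called 0 higher and 0 lower, none had an unadjusted p under 0.05, 43 had a positive difference, and the median was 0.07, beside 0.04 over all genes. Knockout lay apart above wild type for 7 of them (10.3%) and below for 2 (2.94%), where 8.66% and 6.09% of all genes did. All 18 genes of the JAK, STAT and SOCS list were tested, with 11 positive, 7 negative and none apart. Socs3, the feedback inhibitor of gp130 and IL-22 signalling, had levels of 2.35 and 1.03 in knockout, against 0.86 and 1.60 in wild type, and was highest on knockout 1. In the list from MyD88 and IRAK to NF-κB, 17 of 21 genes were positive, where 56.2% of all genes were. Knockout 1 was above the wild-type mean for 15 of the 21, and knockout 2 for 10. In this list 4 genes lay apart above wild type (19.0%, where 8.66% of all genes did), Ikbkg, Map3k7, Ikbkb and Rela. Differences of Map3k7, Ikbkb and Rela were 0.20, 0.08 and 0.07, each under its SE (0.26, 0.27 and 0.27). Ikbkg, the NEMO subunit of the kinase that frees NF-κB, had levels of -0.71 and -1.18, against -1.62 and -1.47 (difference 0.60, SE 0.32). Irak3, an inhibitor of IL-1 receptor signalling, had levels of -4.33 and -2.59, against -2.61 and -2.26, lowest on knockout 1.

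The 8 tested genes of the inflammasome list, which process IL-1β and IL-18, were all positive with scaling to the 75th percentile, the only scaling tried for single genes of this list, with medians of 0.74 on knockout 1 and -0.25 on knockout 2, against 0.30 and -0.30 in wild type. Aim2, a DNA sensor well above background on 2 arrays, was apart at -4.63 and -4.54, against -5.23 and -4.84, and Pycard, the adaptor, overlapped at 4.92 and 5.13, against 5.28 and 3.94. Of 13 partner receptor and related cytokine genes 5 were positive. Csf2ra, the GM-CSF receptor chain, was apart at 0.65 and 0.61, against 1.15 and 0.87. Of 8 lymphoid transcription factor genes 2 were positive and lay apart, Ahr and Gata3. Ahr, the xenobiotic sensor that also sustains IL-22-producing cells, had levels of 1.16 and -0.01, against -0.23 and -0.02, with knockout 2 barely above wild type. Rora had levels of -2.77 and -1.36, against -1.51 and -1.34, low on knockout 1. None of these genes passed the threshold (limma's adjusted p = 1.00).

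As a check of the labels, 6 genes of the deleted cluster were the 6 genes past the threshold. Cyp3a11 had levels of -5.77 and -4.52 on the knockout arrays, where its probe was not well above background, against 5.05 and 5.78 on the wild-type arrays (limma's adjusted p = 0.00236).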

How the data were processed

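Small-intestine RNA was hybridised, after Cy3 labelling, to 1-colour Agilent arrays per the labels' protocols, and scans were quantified in Agilent Feature Extraction 11.5.1.1, per the submitters' processing notes. Per the file headers, the deposited intensity had background subtracted and no scaling between arrays. The authors' deposited value table holds log2 values that matched the log2 signal after subtraction of each array's 75th percentile and of the probe's median over arrays (39408 probes, correlation 1.00), so it keeps differences but no levels. Its column medians were -0.11 and 0.12 for knockout 1 and 2 and 0.05 and -0.10 for wild type 1 and 2.

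Here, control and outlier spots were left out, spots of a probe averaged, and each array's 75th percentile subtracted from log2 signal. Of 39429 probes 28025 matched 1 symbol through RefSeq accessions without versions, using the GRCm38.p6 table for names. Probes well above background on at least 2 of 4 arrays were kept (24013), and the brightest per gene was used. Limma 3.58.1 (R 4.3.3, lmFit and eBayes with an intensity trend) tested 14395 genes with Benjamini-Hochberg adjustment, and was tested on simulated data. No spot was saturated. All members could be named. Values on every array were given by rule for members that did not overlap, differed by a log2 of at least 1 or were among the 10 brightest, and for the 2 largest differences per signalling list. Other values were chosen after they were seen. Most genes of the lists enter only the counts and medians of their list, and some are not reported here. The members and lists were chosen with earlier results of these data known. Knockout 1 and wild type 2 shared a slide, and each other array had its own. Normexp used median spot signals. The alternatives were other corrections, scalings, filters and probe rules, the authors' table, no trend, a replicate block, the shared slide and leaving out each array.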

Additional observations from a re-analysis of the deposited data

How the results depend on the processing

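With 2 arrays per genotype most member differences turned in sign when 1 array was left out, and no member other than Il18 passed the threshold in any setting. Over all genes 0 were called higher and 6 lower. With normexp background correction the counts were 3 and 10, with a replicate block 6 and 26, and with probes well above background on all 4 arrays 0 were lower. That filter takes the probes of the 6 genes out before the test, because neither knockout array showed them well above background. Leaving out an array gave 0 to 135 higher and 0 to 298 lower, the highest without knockout 2, and without wild type 1 or wild type 2 none was lower. Members called higher ranged from 0 to 1, signalling genes called higher from 0 to 1 and lower from 0 to 2, in each case above 0 only without knockout 2. No member was called with the replicate block, and whether the numbers pair the arrays is not given. Deviations of equally numbered arrays correlated at 0.05 across genes.

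The median member difference of 0.01 was 0.22 within the shared slide and 0.62 with normexp, where 29 members were positive. Normexp followed by quantile normalization, added after the data were seen, kept it within the spread of array medians (0.18), and the cause of the normexp value was not tested. Signs turned with normexp for Il10ra (0.61), Il12rb1 (0.67), Il12rb2 (0.76), Il17rc (-0.56), Il1r1 (0.62), Il1r2 (0.17), Il1rap (0.65), Il1rl1 (0.50), Il20rb (0.73), Il2rg (0.94) and Il4i1 (0.25). With normexp and quantile normalization they turned for Il17rb (-0.0305), Il20rb (0.0028), Il22 (-0.0483) and Il2rg (0.0297), with quantile normalization for Il17rc (-0.0058), and with median scaling, which moved the median of all genes to 0.10, for Il3ra (0.0144) and Il6ra (0.0505). Within the shared slide they turned for Il10ra (0.46), Il12rb1 (0.26), Il18r1 (-0.29), Il1rap (0.0478), Il22 (-0.0181), Il2rg (0.72), Il33 (-1.59) and Il6ra (0.0513).

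With 1 array left out, the differences of the 33 members that turned spanned these ranges: Il10ra -1.02 to 0.15, Il10rb -0.0039 to 0.60, Il11ra1 -0.93 to 0.43, Il12rb1 -0.72 to 0.10, Il12rb2 -0.65 to 0.029, Il13ra1 -0.14 to 0.82, Il15 -0.76 to 1.49, Il15ra -0.47 to 0.10, Il16 -0.20 to 0.46, Il17d -0.57 to 0.25, Il17ra -0.0146 to 0.65, Il17rb -0.53 to 0.57, Il17rc -0.20 to 0.41, Il17rd -0.29 to 0.30, Il17re -1.16 to 0.28, Il18 -0.0128 to 1.64, Il18bp -0.24 to 0.60, Il18r1 -0.18 to 0.35, Il1b -0.58 to 0.76, Il1r1 -0.55 to 0.32, Il1r2 -1.13 to 0.17, Il1rl1 -1.42 to 0.67, Il22 -0.15 to 0.20, Il22ra1 -0.53 to 1.18, Il27 -0.18 to 0.57, Il2rb -0.42 to 0.67, Il2rg -0.87 to 0.44, Il33 -0.77 to 2.28, Il34 -0.41 to 0.037, Il3ra -0.46 to 0.37, Il6ra -0.25 to 0.23, Il6st -0.59 to 0.20 and Il9r -0.49 to 1.50. Dim probes limit Il22, Il9r, Il1b, Il2rg and Il17rb, which were not well above background on every array. Only Il22ra2 and Il4ra had 1 sign in every setting.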
